A study of Mus musculus with 12 samples.

Results

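The Ikaros family is a group of zinc finger transcription factors encoded in the mouse by Ikzf1 (Ikaros), Ikzf2 (Helios), Ikzf3 (Aiolos), Ikzf4 (Eos) and Ikzf5 (Pegasus). All 5 genes were looked up by symbol among the 49671 genes of the deposited count files, and all 5 passed the filter on low counts that left 17977 genes for testing. Their RNA was measured in 4 groups of 3 libraries of regulatory T cells (Tregs), a CD4 lineage that keeps immune responses in check and whose identity rests on Foxp3. The first group was Tregs induced in vitro (iTregs) out of naive CD4 cells of mice labelled Gclc mutant, and the second was iTregs of wild-type (WT) mice. The third was Tregs isolated fresh (nTregs) from Gclc mutant mice, and the fourth was nTregs of WT mice. All animals were of the C57BL/6 strain and 8 weeks old. Gclc encodes the catalytic part of the ligase that joins glutamate and cysteine in the first step towards glutathione. The labels do not give the form of the mutant allele, the cells that carry it, or the culture conditions.

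Ikaros family proteins bind DNA through zinc fingers near the amino terminus and pair with each other through a second set of fingers at the carboxy terminus. They recruit corepressor complexes such as NuRD, Sin3 and CtBP, and they can silence or maintain genes in developing and mature lymphocytes. Ikaros is made throughout the lymphoid lineage and Aiolos in B cells and in several T cell subsets. Helios marks most Tregs that arise in the thymus, and Eos is known as a partner of Foxp3 in gene silencing. Pegasus is the most divergent member and is made in many tissues.

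Coding bases of a finger at the carboxy terminus, where the members pair, were compared between Ikaros, Helios and Pegasus. Each line below gives the 63 coding bases of the last zinc finger of these 3 members, 5′ to 3′ on the coding strand, with capitals at bases that differ from Ikzf1. They were read from GENCODE M21 transcripts on GRCm38.
Ikzf1 (chr11:11769411-11769473, plus strand, exon 9 of 9): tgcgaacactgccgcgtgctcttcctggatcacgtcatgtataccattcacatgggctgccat
Ikzf2 (chr1:69538870-69538932, minus strand, exon 8 of 8): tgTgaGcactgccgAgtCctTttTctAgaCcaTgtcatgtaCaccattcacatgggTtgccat
Ikzf5 (chr7:131391739-131391801, minus strand, exon 4 of 4): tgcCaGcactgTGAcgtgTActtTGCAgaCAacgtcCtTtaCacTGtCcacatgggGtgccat
Ikzf2 differed from Ikzf1 here at 11 bases (82.5% identical), and Ikzf5 was farther, with 20 differing bases (68.3%). These are identities of bases and not of protein. All differing bases of Ikzf2 leave the encoded amino acids unchanged, whereas some of those of Ikzf5 change them.

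The finger at the centre of the DNA-binding block was compared in the same way in 4 members, because it is part of the surface through which these factors read DNA.
Ikzf1 (chr11:11754024-11754086, plus strand, exon 6 of 9): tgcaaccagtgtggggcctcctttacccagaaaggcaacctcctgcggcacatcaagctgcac
Ikzf2 (chr1:69570581-69570643, minus strand, exon 5 of 8): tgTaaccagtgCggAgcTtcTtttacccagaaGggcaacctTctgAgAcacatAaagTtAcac
Ikzf3 (chr11:98488940-98489002, minus strand, exon 5 of 8): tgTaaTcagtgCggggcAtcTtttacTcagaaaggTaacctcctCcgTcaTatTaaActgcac
Ikzf4 (chr10:128640229-128640291, minus strand, exon 5 of 9): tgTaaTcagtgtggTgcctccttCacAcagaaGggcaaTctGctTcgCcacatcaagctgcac
Here Ikzf4 differed from Ikzf1 at 10 bases (84.1% identical), and Ikzf2 and Ikzf3 each differed at 12 (81.0%). All of these differing bases leave the encoded amino acids unchanged, so the 4 lines encode the same finger. The closest of the 3 finger matches in Ikzf5 was match 3 (49.2% identical), which is the carboxy-terminal one printed above. Matches 1 and 2 of Ikzf5 were 46.0% and 41.3% identical to this finger. No Ikzf5 line is shown, because its closest match did not lie at the same place in the order. Despite this likeness the members could be counted apart. The longest run of identical bases between transcripts of any pair was 32 bases (Ikzf2 and Ikzf4), and no stretch of 50 bases was shared by any pair.

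Ikzf1 (ENSMUSG00000018654) lies on chromosome 11 of GRCm38 from 11685003 to 11772926 on the plus strand. The other members are on minus strands: Ikzf2 (ENSMUSG00000025997) on chromosome 1 from 69531214 to 69687245, Ikzf3 (ENSMUSG00000018168) on chromosome 11 from 98464902 to 98546031, Ikzf4 (ENSMUSG00000002578) on chromosome 10 from 128630843 to 128645991, and Ikzf5 (ENSMUSG00000040167) on chromosome 7 from 131388652 to 131410521. No exon of a member overlapped an exon of another gene on its own strand. Exons of Ikzf2, Ikzf4 and Ikzf5 overlapped exons on the opposite strand (Gm29114 for Ikzf2, Gm26876 for Ikzf4, Pstk and Gm44624 for Ikzf5), which the stranded counting kept apart. The processed pseudogene Gm10356 shared 12.9% of the 50-base stretches of Ikzf5, and reads there could be counted at both, so Ikzf5 values carry that uncertainty. Gm10356 itself was counted at 8.85 to 11.2 CPM (counts per 1000000 of the TMM-scaled library size) in the 12 libraries and passed in none of the 5 comparisons below.

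Depth ranged over the 12 libraries between 28707579 and 39886130 counts assigned to genes. Whether the 3 libraries of each group derive from different animals or cultures is not given in the labels. The p-values therefore measure only the spread between the samples, and that spread may be technical. Gclc was at 18.8, 21.0 and 19.0 CPM in mutant iTregs, against 56.5, 53.2 and 51.9 CPM in WT iTregs. It was at 45.8, 41.7 and 43.2 CPM in mutant nTregs, against 78.7, 79.0 and 70.8 CPM in WT nTregs, so the genotype labels matched the direction in both kinds of cell. The Treg markers Foxp3, Il2ra, Ctla4 and Tnfrsf18 were detected in every library. One library stood apart in each mutant group. Mutant nTreg library 1 had a summed level of 10 CD8 T cell and NK cell markers of 1565 CPM, against 165 to 187 CPM in the other mutant nTregs and 57.7 to 65.0 CPM in WT nTregs. Mutant iTreg library 4 differed from its 2 partners by a chi-square of 21.8 and 22.0 per degree of freedom over genes, a value that grows with the noise beyond counting, whereas those partners differed from each other by 6.41. Among WT libraries, WT iTreg library 3 also differed more from its partners, by 13.75 and 10.81, against 4.2 between those partners. Members are given below with and without mutant nTreg library 1 or mutant iTreg library 4 where this changed a call or a direction. The partner and target lists are given likewise where their counts of calls changed.

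Levels of different members were compared per exon length, as CPM per kilobase of exon (RPKM), with library sizes scaled by TMM. Helios had the widest range of group means, 31.7-fold between WT nTregs and WT iTregs. Aiolos followed with 3.54-fold, Eos with 1.49-fold, Pegasus with 1.31-fold and Ikaros with 1.12-fold. In bulk RNA, fewer cells that express a gene and less RNA per cell cannot be told apart, and this holds for every level below.

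**Figure D1:**
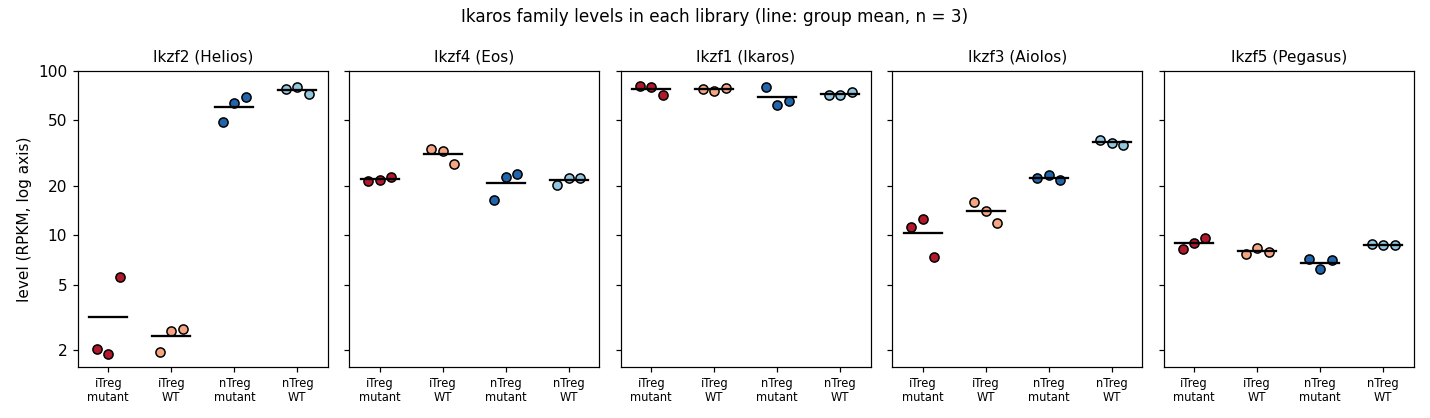
Level of each member in each of the 12 libraries (RPKM, log axis), by group, with the group mean as a line. Helios lay between 1.90 and 5.54 RPKM in the 6 iTreg libraries and between 48.5 and 79.4 RPKM in the 6 nTreg libraries, while Ikaros stayed between 61.9 and 80.4 RPKM throughout.

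In mutant iTregs the order was Ikaros (77.3 ± 5.0 RPKM, SD, n = 3), Eos (21.9 ± 0.71), Aiolos (10.4 ± 2.6), Pegasus (8.91 ± 0.67) and Helios (3.16 ± 2.1). Aiolos and Pegasus overlapped in these libraries. WT iTregs had the same order, with Ikaros at 77.3 ± 1.6, Eos at 31.0 ± 3.5, Aiolos at 13.9 ± 1.9, Pegasus at 7.97 ± 0.35 and Helios at 2.41 ± 0.42 RPKM, and no neighbours overlapped. In mutant nTregs Ikaros (68.9 ± 9.4 RPKM) and Helios (60.5 ± 10.8) overlapped, and so did Aiolos (22.3 ± 0.89) and Eos (20.8 ± 4.0), with Pegasus lowest at 6.79 ± 0.51. WT nTregs had Helios at 76.5 ± 3.7 and Ikaros at 72.5 ± 1.6, which overlapped, then Aiolos at 36.7 ± 1.2, Eos at 21.6 ± 1.2 and Pegasus at 8.76 ± 0.087 RPKM. Helios was thus the lowest member in both iTreg groups and shared the top of the order with Ikaros in both nTreg groups.

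The make-up of the family, as each member's share of the summed RPKM of all 5, changed accordingly. Helios made up 2.64% ± 1.8 of the sum in mutant iTregs and 1.83% ± 0.36 in WT iTregs, against 33.6% ± 5.0 in mutant nTregs and 35.4% ± 1.3 in WT nTregs. Ikaros made up 63.5% ± 2.0 in mutant iTregs and 58.3% ± 2.7 in WT iTregs, against 38.5% ± 6.3 in mutant nTregs and 33.6% ± 1.1 in WT nTregs. The summed level itself was 122 ± 4.3 RPKM in mutant iTregs and 133 ± 3.9 RPKM in WT iTregs, against 179 ± 6.8 RPKM in mutant nTregs and 216 ± 2.6 RPKM in WT nTregs. The mutant groups did not overlap their WT groups in this sum.

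**Figure D2:**
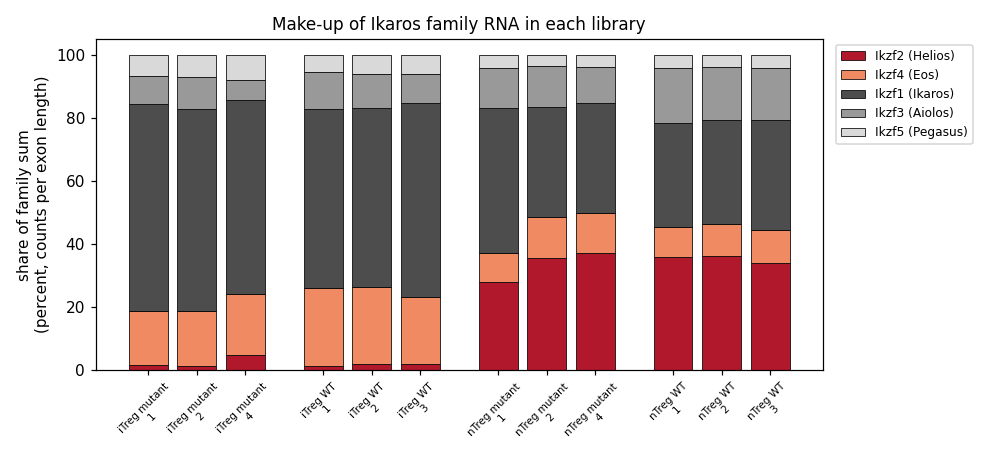
Share of each member in the summed level of the family (percent, counts per exon length), 1 bar per library. The Helios share was 1.42% to 4.75% in iTreg libraries and 27.9% to 37.2% in nTreg libraries.

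The first question was which members differ between Tregs made in culture and Tregs taken fresh. Of the 5 members, 1 was higher and 2 were lower in mutant iTregs than in mutant nTregs, and the counts were the same in WT cells, though not for the same members. Of all tested genes, 68.2% passed in the mutant comparison (33.2% higher and 35% lower in iTregs) and 69.5% in the WT comparison (33.7% higher and 35.7% lower), so the number of members that passed was near the background. The median log2 fold change of all tested genes was −0.02 in both comparisons. Differences below are fitted log2 fold changes with SE, with Benjamini-Hochberg adjusted p-values from the quasi-likelihood test of edgeR over all tested genes.

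Helios, the factor associated with Tregs of thymic origin, was at 23.7, 22.0 and 64.4 CPM in mutant iTreg libraries 1, 2 and 4, against 563, 737 and 807 CPM in mutant nTreg libraries 1, 2 and 4. It was at 22.5, 30.4 and 31.3 CPM in WT iTregs, against 902, 922 and 839.8 CPM in WT nTregs. No iTreg library came near any nTreg library, and mutant iTreg library 4 was the highest of the iTregs. The log2 fold change was −4.26 ± 0.36 in mutant cells (adjusted p = 4.99e-07) and −4.98 ± 0.37 in WT cells (adjusted p = 1.68e-07). Without mutant iTreg library 4 the mutant value was −4.94, close to the WT value.

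Eos, the Foxp3 partner, did not move with Helios. It was at 201, 195 and 162 CPM in WT iTregs, against 121, 133 and 134 CPM in WT nTregs, with no overlap, and it rose by 0.52 ± 0.12 on the log2 scale (adjusted p = 0.00198, edgeR). In mutant cells it was at 128, 131 and 136 CPM in iTregs, against 97.5, 136 and 141 CPM in nTregs, and these overlapped. The mutant log2 fold change of Eos was 0.07 ± 0.12 (95% interval −0.19 to 0.34, adjusted p = 0.611, edgeR), and its sign turned to −0.16 without mutant nTreg library 1.

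Aiolos was at 98.0, 109 and 64.7 CPM in mutant iTregs, against 194, 204 and 188 CPM in mutant nTregs. It was at 138, 123 and 104 CPM in WT iTregs, against 332, 319.6 and 311 CPM in WT nTregs. It fell in iTregs of both genotypes without overlap, by 1.11 ± 0.15 on the log2 scale in mutant cells (adjusted p = 3.83e-05) and by 1.40 ± 0.15 in WT cells (adjusted p = 4.81e-06, edgeR). Aiolos is also a B cell gene, and the summed level of 8 B cell markers moved with this difference. That sum was 3.04 to 3.55 CPM in mutant iTregs and 2.48 to 3.68 CPM in WT iTregs, against 249 to 474 CPM in mutant nTregs and 323 to 515 CPM in WT nTregs, with 2 to 4 of the 8 markers at 0 in an iTreg library. Its part in the Aiolos difference was not tested.

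Ikaros was at 464, 462 and 413.5 CPM in mutant iTregs, against 459.7, 357.5 and 376 CPM in mutant nTregs, which overlapped. It was at 447, 438 and 456 CPM in WT iTregs, against 413.4, 413.5 and 429.8 CPM in WT nTregs, which did not. The log2 fold change of Ikaros was 0.17 ± 0.09 in mutant cells (adjusted p = 0.107) and 0.09 ± 0.09 in WT cells (adjusted p = 0.36, edgeR), with 95% intervals of −0.02 to 0.36 and −0.10 to 0.28. Without mutant nTreg library 1, whose Ikaros level was the highest of the nTregs, the mutant difference passed at 0.20 (adjusted p = 0.00829).

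Pegasus was at 47.0, 51.3 and 54.6 CPM in mutant iTregs, against 40.9, 35.5 and 40.2 CPM in mutant nTregs, and it rose by 0.39 ± 0.08 on the log2 scale (adjusted p = 0.000512, edgeR). In WT cells it was at 43.7, 47.6 and 45.4 CPM in iTregs, against 50.7, 49.9 and 49.8 CPM in nTregs, with no overlap but a log2 fold change of −0.14 ± 0.08 that did not pass (adjusted p = 0.124). The WT value passed with DESeq2, at −0.17 (adjusted p = 0.0462), with scaling by library size alone, at −0.19 (adjusted p = 0.0403), and with the compared libraries alone, at −0.15 (adjusted p = 0.0299). Pegasus had opposite signs in the 2 genotypes, and the test of this difference is given with the effect of the mutation.

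**Figure D3:**
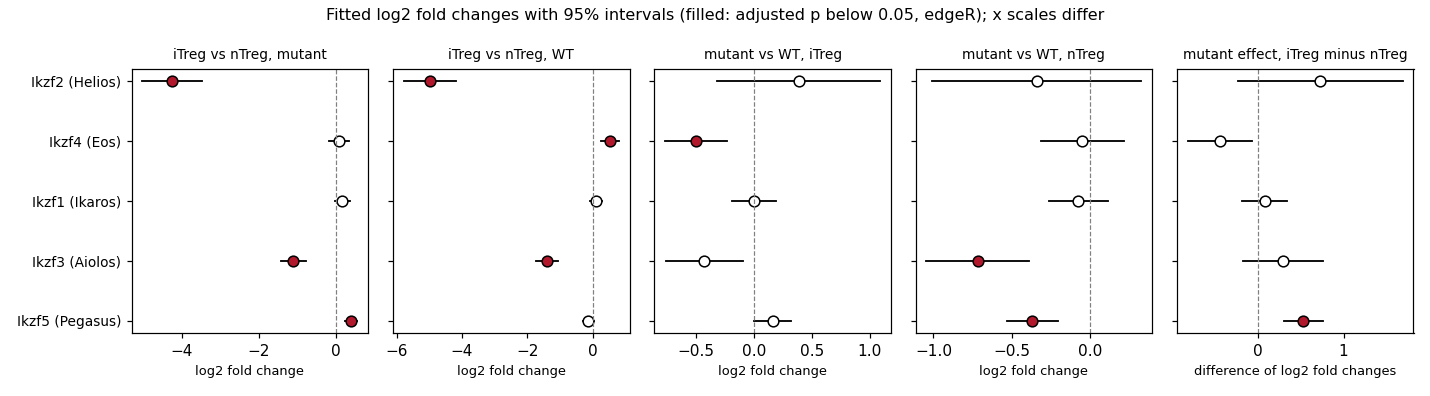
Fitted log2 fold changes of each member with 95% intervals in the 5 comparisons; filled points passed at an adjusted p below 0.05 (edgeR), and the x scales differ between panels. Helios stands far below 0 in both comparisons of iTregs with nTregs, and no interval for Ikaros excludes 0.

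The second question was whether the Gclc mutation changed members of the family. In iTregs, 1 of the 5 members passed (Eos, lower), against 25.4% of all tested genes passing in either direction, 14% higher and 11.4% lower. In nTregs, 2 of the 5 passed (Aiolos and Pegasus, both lower), against 34.9% of all tested genes in either direction, 19.3% higher and 15.6% lower. The median log2 fold change of all tested genes was 0.04 in both. No member was called higher in the mutant in either kind of cell, and the library values are those given above. The shares of members that passed were near these backgrounds, and the members are therefore described singly.

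Eos was lower in mutant than in WT iTregs in every library, with 131 ± 4.3 CPM in mutant iTregs and 186 ± 21 CPM in WT iTregs (SD, n = 3 each). It fell by 0.50 ± 0.12 on the log2 scale (adjusted p = 0.0127, edgeR). This call was lost without WT iTreg library 1 (adjusted p = 0.0621) or WT iTreg library 2 (adjusted p = 0.0544, edgeR). The log2 fold change stayed between −0.59 and −0.45 over all libraries left out in turn. Calls among all tested genes also dropped in those 2 fits, from 4561 with all libraries to 1770 and 2039. The loss was therefore not particular to Eos. In nTregs Eos was at 125 ± 24 CPM in the mutant and 129 ± 7.0 CPM in WT, a log2 fold change of −0.05 ± 0.12 (adjusted p = 0.789), or 0.13 without mutant nTreg library 1 (adjusted p = 0.301). The difference between the Eos effects in iTregs and nTregs was −0.45 ± 0.17 (adjusted p = 0.1). Without mutant nTreg library 1, which had the lowest Eos level of all libraries, it was −0.67 (adjusted p = 0.00382).

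Aiolos was lower in every mutant nTreg library than in every WT nTreg library, with 195 ± 7.8 CPM in mutant nTregs and 321 ± 10 CPM in WT nTregs (SD, n = 3 each). It fell by 0.72 ± 0.15 on the log2 scale (adjusted p = 0.00382, edgeR), and by 0.68 to 0.77 with any 1 library left out. Markers of other cells moved in the same comparison, where 19.3% of all tested genes rose and 15.6% fell. Of the 10 CD8 and NK markers 9 rose, and their sum was higher in every mutant nTreg library than in every WT one. None of the 8 B cell markers passed, with Blk nearest (−0.66, adjusted p = 0.05). Of 4 plasma cell markers 1 fell, Sdc1 (by 1.495, adjusted p = 0.00576), and their sum was 18.5 to 59.7 CPM in mutant nTregs, against 52.3 to 86.1 CPM in WT nTregs. The part of these cells in the Aiolos difference was not tested. In iTregs Aiolos was at 90.6 ± 23 CPM in the mutant and 122 ± 17 CPM in WT, and the groups overlapped. The iTreg log2 fold change was −0.43 ± 0.15 and lay just outside the threshold (adjusted p = 0.0568). It passed with DESeq2 (adjusted p = 0.0252) and without mutant iTreg library 2 (0.0283), WT iTreg library 3 (0.0367) or mutant nTreg library 1 (0.0284). It was −0.24 without mutant iTreg library 4, the lowest library for Aiolos (adjusted p = 0.124). The difference between the Aiolos effects in iTregs and nTregs was 0.29 ± 0.21 (adjusted p = 0.398), or 0.48 without mutant iTreg library 4 (adjusted p = 0.0371).

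Pegasus was at 38.85 ± 2.9 CPM in mutant nTregs and 50.1 ± 0.50 CPM in WT nTregs, without overlap. It fell by 0.37 ± 0.08 on the log2 scale (adjusted p = 0.0033, edgeR). In iTregs it was at 51.0 ± 3.8 CPM in the mutant and 45.6 ± 2.0 CPM in WT, a log2 fold change of 0.16 ± 0.08 (adjusted p = 0.133) with overlapping libraries. The difference between these effects, 0.53 ± 0.11, passed (adjusted p = 0.00949), and Pegasus was the only member for which it did with all 12 libraries. In that test of the difference 1 of the 5 members passed, against 13.3% of all tested genes (6.12% higher and 7.18% lower). Pseudogene Gm10356 had a log2 fold change of −0.16 ± 0.10 in nTregs (adjusted p = 0.247) and 0.00 ± 0.10 in iTregs (adjusted p = 1).

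Helios was at 702 ± 126 CPM in mutant nTregs and 888 ± 43 CPM in WT nTregs. Every mutant library lay below every WT library, yet the log2 fold change of −0.34 ± 0.31 did not pass (95% interval −1.01 to 0.33, adjusted p = 0.421, edgeR). The lowest value, 563 CPM, was that of mutant nTreg library 1, and without it the log2 fold change was −0.17 (adjusted p = 0.73). In iTregs Helios was at 36.7 ± 24 CPM in the mutant and 28.0 ± 4.9 CPM in WT, with a log2 fold change of 0.39 ± 0.32 (adjusted p = 0.406). The sign in iTregs turned with 1 library: without mutant iTreg library 4 the value was −0.30 (adjusted p = 0.212). That library held the highest Helios and the lowest Aiolos of the 6 iTreg libraries.

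Ikaros did not pass between genotypes in either kind of cell. It was at 447 ± 29 CPM in mutant iTregs and 447 ± 9.0 CPM in WT iTregs, a log2 fold change of 0.00 ± 0.09 (95% interval −0.19 to 0.19, adjusted p = 1, edgeR), or 0.05 without mutant iTreg library 4 (adjusted p = 0.742). In nTregs it was at 398 ± 54 CPM in the mutant and 419 ± 9.4 CPM in WT, a log2 fold change of −0.07 ± 0.09 (95% interval −0.26 to 0.12, adjusted p = 0.536). Mutant nTreg library 1 was the highest nTreg library for Ikaros and the lowest for Helios and Eos, and its summed CD8 and NK marker level was the highest. The part of those cells in the member values was not tested.

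Ratios of 2 members in the same library do not depend on the scaling between libraries. They were tested with a two-sided exact permutation test with labels permuted within a stratum (400 allocations, smallest possible p = 0.005), adjusted over 8 tests. Helios over Ikaros was at a mean log2 ratio of −4.80 ± 0.96 in mutant iTregs, against −0.20 ± 0.45 in mutant nTregs. In WT cells it was −5.02 ± 0.27 in iTregs, against 0.08 ± 0.10 in nTregs. The mean difference of iTregs minus nTregs was −4.85 (exact p = 0.005, adjusted p = 0.0133), in the same direction in both genotypes.

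Aiolos over Ikaros also fell in iTregs, by 1.41 on the log2 scale (exact p = 0.005, adjusted p = 0.0133). Helios over Eos fell by 5.02 (exact p = 0.005, adjusted p = 0.0133). Eos over Ikaros did not pass, with a mean difference of 0.17 (exact p = 0.32, adjusted p = 0.427). Its difference was 0.43 in WT cells and −0.08 in mutant cells.

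Between genotypes, only Aiolos over Ikaros passed. Its log2 ratio was −2.93 ± 0.31 in mutant iTregs, against −2.48 ± 0.22 in WT iTregs, and −1.62 ± 0.22 in mutant nTregs, against −0.98 ± 0.07 in WT nTregs. The mean difference of mutant minus WT was −0.54 (exact p = 0.01, adjusted p = 0.02), made up of −0.45 in iTregs and −0.63 in nTregs. Within a single kind of cell, 3 libraries against 3 cannot give an exact p below 0.1. For Aiolos over Ikaros the exact p was 0.2 in iTregs, where the libraries overlapped, and 0.1 in nTregs, where they did not. Eos over Ikaros differed by −0.24 (exact p = 0.175, adjusted p = 0.28), with −0.49 in iTregs and 0.02 in nTregs. Helios over Ikaros differed by −0.03 (exact p = 0.925) and Helios over Eos by 0.21 (exact p = 0.64, adjusted p = 0.731).

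**Figure D4:**
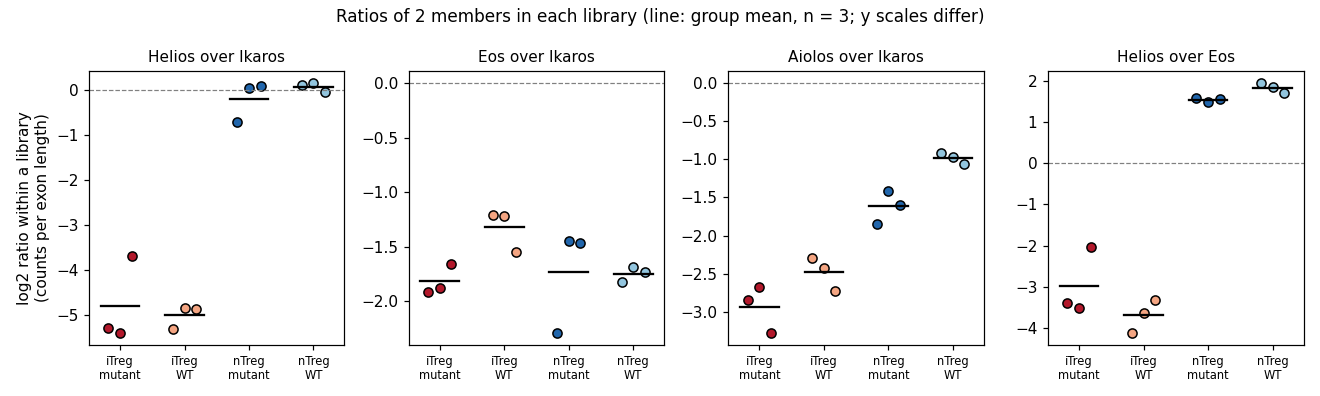
Log2 ratio of 2 members within each library (counts per exon length), by group, with the group mean as a line; the y scales differ between panels. The group mean of Aiolos over Ikaros is lower in the mutant in both kinds of cell, with overlapping libraries in iTregs. Mutant iTreg library 4 is the highest iTreg library for both Helios ratios.

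The corepressor complexes through which the family acts were described from lists of their subunits. Of 14 NuRD genes, 5 rose and 2 fell in mutant iTregs, where 14% of all tested genes rose and 11.4% fell, with a list median log2 fold change of 0.10, against 0.04 for all tested genes. In mutant nTregs 4 rose and 2 fell, where 19.3% of all tested genes rose and 15.6% fell, with a median of 0.12, against 0.04. Chd3, a helicase-like remodelling subunit, was the NuRD gene that fell in both. It was at 313 ± 31 CPM in mutant iTregs and 478 ± 33 CPM in WT iTregs, a fall by 0.61 ± 0.11 on the log2 scale (adjusted p = 0.00312, edgeR). In mutant nTregs it was at 546 ± 82 CPM, against 937 ± 61 CPM in WT nTregs, a fall by 0.78 ± 0.11 (adjusted p = 0.000447). The other remodelling subunit on the list, Chd4, was at 636 ± 39 CPM in mutant iTregs and 572 ± 8.7 CPM in WT iTregs, and at 492 ± 12 CPM in mutant nTregs and 539 ± 20 CPM in WT nTregs, and passed in neither.

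Mbd3, the subunit that sets one form of the complex apart from that with Mbd2, fell by 0.60 ± 0.10 in mutant iTregs (adjusted p = 0.00233, edgeR). It did not pass in nTregs, and its difference between the 2 effects was −0.79 ± 0.14 (adjusted p = 0.00635). The histone deacetylase Hdac2 rose by 0.29 ± 0.06 (adjusted p = 0.00624) and the histone-binding Rbbp4 by 0.33 ± 0.08 (adjusted p = 0.00964) in mutant iTregs. In mutant nTregs Cdk2ap1 rose by 0.72 ± 0.12 (adjusted p = 0.00105), Mta1 by 0.35 ± 0.06 (adjusted p = 0.0012) and the histone-binding Rbbp7 by 0.56 ± 0.11 (adjusted p = 0.00245, edgeR). Rbbp7 also rose in mutant iTregs, by 0.36 ± 0.11 (adjusted p = 0.0299, edgeR). That iTreg call was lost without WT iTreg library 1 or 2 or mutant iTreg library 1 or 2 (adjusted p 0.0907 to 0.122). The difference between the Rbbp7 effects did not pass (−0.20 ± 0.15, adjusted p = 0.421). The count of NuRD genes that rose in mutant iTregs was 1 without WT iTreg library 1 or 2, 2 without mutant iTreg library 1 or 2, and 3 without mutant iTreg library 4 or any 1 WT nTreg library, and it was 6, with 3 falls, without mutant nTreg library 1. Over all libraries left out in turn it was 1 to 6 in iTregs and 3 to 5 in nTregs, with 3 in nTregs without mutant nTreg library 1 and 5 without mutant iTreg library 4. Rbbp4 was not called without WT iTreg library 1 (adjusted p = 0.0605) or 2 (0.0515). Chd3, Mbd3 and Hdac2 passed in iTregs with any 1 library left out. Of 6 Sin3 and CtBP genes, 1 fell in mutant iTregs (Ctbp1, by 0.29 ± 0.07, adjusted p = 0.0114) and 1 rose in mutant nTregs (Sap30, by 1.11 ± 0.16, adjusted p = 0.000509). Ctbp1 was not called without WT iTreg library 1 (adjusted p = 0.0521) or 2 (0.0524). In iTregs Sap30 was called higher without mutant iTreg library 4 (0.53, adjusted p = 0.0289) or mutant nTreg library 1 (0.38, 0.0304) or 2 (0.41, 0.0475), and Sap18 without mutant nTreg library 1 (0.0278) or 2 (0.0468). Sin3b was called lower there without mutant iTreg library 4 (adjusted p = 0.0176) or mutant nTreg library 1 (0.0308), and Ctbp2 was called higher in mutant nTregs without WT iTreg library 3 (0.025). The medians of the 6 Sin3 and CtBP genes were 0.11 in iTregs and 0.05 in nTregs, against 0.04 for all tested genes in both. Of all tested genes, 14% rose and 11.4% fell in mutant iTregs, and 19.3% rose and 15.6% fell in mutant nTregs.

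Between iTregs and nTregs, 8 of the 14 NuRD genes were higher and 5 were lower in mutant iTregs, and 5 were higher and 3 were lower in WT iTregs. The list medians were 0.34 in mutant cells and 0.13 in WT cells, against −0.02 for all tested genes in both. Of all tested genes, 33.2% were higher and 35% lower in mutant iTregs, and 33.7% were higher and 35.7% lower in WT iTregs. Hdac2 was higher in iTregs by 0.75 ± 0.06 in mutant cells (adjusted p = 4.88e-07) and by 0.53 ± 0.06 in WT cells (adjusted p = 8.14e-06, edgeR), and Chd3 was lower, with log2 fold changes of −0.80 ± 0.11 in mutant cells (adjusted p = 3.57e-05) and −0.97 ± 0.11 in WT cells (adjusted p = 6.22e-06). Without mutant iTreg library 4, 4 NuRD genes were lower in mutant iTregs and 6 were higher in WT iTregs. The lower ones numbered 3 in mutant iTregs without mutant iTreg library 2, and 1 in WT iTregs without WT iTreg library 2 or WT nTreg library 1. Of the 6 Sin3 and CtBP genes, 2 were higher and 3 were lower in mutant iTregs, and 1 was higher and 2 were lower in WT iTregs. In mutant iTregs 1 was higher without mutant nTreg library 1 or mutant iTreg library 2. In WT iTregs 2 were higher without WT nTreg library 3, and 1 was lower without WT iTreg library 2 or WT nTreg library 1.

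Foxp3, which Eos is known to partner, was far lower in the mutant in both kinds of cell. It was at 107, 96.4 and 75.5 CPM in mutant iTregs, against 300.4, 287 and 291 CPM in WT iTregs. In nTregs it was at 135, 181 and 218 CPM in the mutant, against 610.5, 564 and 559 CPM in WT. The groups did not overlap, and Foxp3 fell by 1.66 ± 0.15 in iTregs (adjusted p = 0.000188) and by 1.70 ± 0.15 in nTregs (adjusted p = 7.03e-05, edgeR) on the log2 scale, which exceeded the change of any Ikaros family member between genotypes.

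Eos has been reported to act beside a set of factors that hold the Treg programme in place with Foxp3, of which Irf4, Satb1, Lef1 and Gata1 were followed here. With Foxp3, 3 of these 5 genes fell and none rose in mutant iTregs, with a median log2 fold change of −0.47. Likewise 3 fell in mutant nTregs, with a median of −0.64. Of all tested genes, 11.4% fell in mutant iTregs and 15.6% in mutant nTregs, with a median of 0.04 in both. Satb1, a chromatin organiser, fell by 0.45 ± 0.14 in iTregs (adjusted p = 0.0347) and by 0.87 ± 0.14 in nTregs (adjusted p = 0.000929). Its iTreg call was lost when any 1 of the 6 iTreg libraries was left out (adjusted p 0.0539 to 0.116). Lef1, a factor of the Wnt pathway and of resting T cells, fell by 0.47 ± 0.10 in iTregs (adjusted p = 0.00551) and by 0.64 ± 0.10 in nTregs (adjusted p = 0.000608, edgeR).

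Irf4, a factor of activated and effector Tregs, did not pass between genotypes. It was at 694 ± 59 CPM in mutant iTregs and 578 ± 27 CPM in WT iTregs, and at 149 ± 25 CPM in mutant nTregs and 128 ± 16 CPM in WT nTregs. Without mutant nTreg library 1 it passed in nTregs at 0.39 ± 0.10 (adjusted p = 0.0134, edgeR). Gata1 was low, at 6.22 ± 3.1 CPM in mutant iTregs and 11.5 ± 2.2 CPM in WT iTregs, and at 13.2 ± 2.7 CPM in mutant nTregs and 18.3 ± 0.64 CPM in WT nTregs, and did not pass between genotypes (adjusted p = 0.0507 in iTregs and 0.23 in nTregs). It was called lower in mutant iTregs without mutant iTreg library 2 (adjusted p = 0.0307) or any 1 mutant nTreg library (0.0278 to 0.0485), and lower in mutant nTregs without mutant iTreg library 4 (0.036).

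Between kinds of cell, 2 of the 5 factors were higher and 2 were lower in iTregs in either genotype. Their medians were −0.29 in mutant and −0.67 in WT cells. Of all tested genes, 33.2% were higher and 35% lower in mutant iTregs, and 33.7% were higher and 35.7% lower in WT iTregs. In WT cells 3 were lower without mutant iTreg library 4 or mutant nTreg library 1, because Gata1 was added (−0.67, adjusted p = 0.00262, and −0.68, adjusted p = 0.0418). The WT count was also 3 without mutant iTreg library 2 or WT iTreg library 3, and the mutant count was 3 without mutant nTreg library 2. Irf4 was higher in iTregs by 2.22 ± 0.13 in mutant cells (adjusted p = 1.99e-08), and it was higher in WT iTregs too (adjusted p = 2.34e-08). Foxp3 was lower in iTregs, with log2 fold changes of −0.94 ± 0.15 in mutant cells (adjusted p = 0.000126) and −0.98 ± 0.15 in WT cells (adjusted p = 7.55e-05, edgeR).

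**Figure D5:**
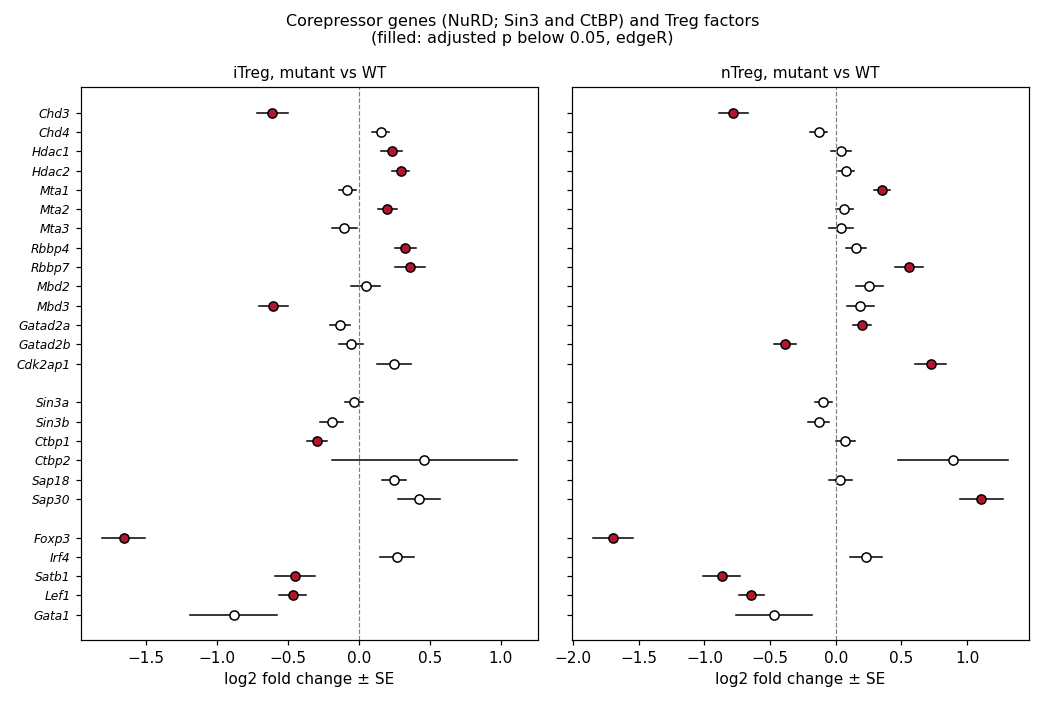
Log2 fold change of mutant against WT with its SE for genes of the NuRD complex (top block), Sin3 and CtBP corepressors (middle block) and factors reported to act with Eos and Foxp3 (bottom block), in iTregs and nTregs; filled points passed at an adjusted p below 0.05 (edgeR), and the x scales differ. Foxp3, Satb1, Lef1 and Chd3 fell in both kinds of cell.

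Genes reported as targets of a family member in lymphocytes were Il2, Ifng, Tbx21, Il10, Hes1, Dtx1, Ptcra, Dntt, Cd8a and Myc. All but Ptcra were tested. In mutant iTregs 1 of the 9 rose and none fell, where 14% of all tested genes rose and 11.4% fell. The list median log2 fold change was 0.47, against 0.04 for all tested genes. Il2, the T cell growth factor that Eos, Aiolos and Helios have each been reported to repress, was the target gene that rose. It was at 17.0, 24.6 and 45.4 CPM in mutant iTregs, against 10.1, 13.6 and 16.4 CPM in WT iTregs, without overlap. The log2 fold change was 1.12 ± 0.28 (adjusted p = 0.0142, edgeR), and 0.64 ± 0.20 without mutant iTreg library 4, the highest for Il2 (adjusted p = 0.0397). The call was lost without WT iTreg library 1 (adjusted p = 0.0751) or 2 (0.052). Without mutant nTreg library 1, Ifng was called higher (3.01, adjusted p = 0.00579) and Myc lower (−0.24, adjusted p = 0.0251) in mutant iTregs. In nTregs Il2 was at 5.50, 4.95 and 5.14 CPM in the mutant, against 5.02, 3.81 and 4.37 CPM in WT.

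The list median in mutant nTregs was 0.61, against 0.04 for all tested genes, of which 19.3% rose and 15.6% fell. Of the 9 target genes 3 rose there and none fell. These were Cd8a, the CD8 coreceptor, by 4.19 ± 0.78 (adjusted p = 0.00189), Tbx21, which encodes T-bet, by 2.495 ± 0.57 (adjusted p = 0.00574), and Ifng, which encodes interferon gamma, by 3.30 ± 0.90 (adjusted p = 0.0137, edgeR). All 3 are also genes of CD8 T or NK cells, and the library with the highest CD8 and NK marker sum carried most of their counts. Cd8a itself is on both lists, so it counts among the target genes and among the 10 markers of that sum. Ifng was at 72.9, 5.61 and 4.35 CPM in mutant nTreg libraries 1, 2 and 4, against 3.56, 2.73 and 2.11 CPM in WT nTregs. Without mutant nTreg library 1, Cd8a rose by 2.29 ± 0.24 (adjusted p = 5.94e-05) and Tbx21 by 1.12 ± 0.18 (adjusted p = 0.000822), and Ifng did not pass (0.87 ± 0.38, adjusted p = 0.11), as it did not without WT nTreg library 3 (adjusted p = 0.0549). Dntt and Myc gained calls, at 2.64 and 0.41 (adjusted p = 0.00691 and 0.00313), when mutant nTreg library 1 was left out, and Il10 did so without WT nTreg library 2 (0.98, adjusted p = 0.0146). Of the 10 CD8 and NK markers, 9 rose in mutant nTregs with all libraries and 6 without mutant nTreg library 1. Their part in the target genes was not tested.

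Between iTregs and nTregs, 2 target genes were higher and 7 were lower in mutant iTregs, and 2 were higher and 5 were lower in WT iTregs. Their medians were −5.12 in mutant and −2.49 in WT cells. The mutant median was the value of Tbx21, which had a mean of 0.82 CPM in mutant iTregs and spanned 10.2 to 64.6 CPM in mutant nTregs. Of all tested genes, 33.2% were higher and 35% lower in mutant iTregs, and 33.7% were higher and 35.7% lower in WT iTregs. Without mutant iTreg library 4, 6 target genes were lower in mutant iTregs, and without mutant nTreg library 1, 6 were lower in WT iTregs. Of the 10 CD8 and NK markers, 8 were lower in mutant iTregs (7 to 10 with 1 library left out) and 1 in WT iTregs (1 to 7). All 8 B cell markers were lower in iTregs of both genotypes. The part of these cells in the target gene differences was not tested. Dtx1, a gene of the Notch pathway, was at 1.23 ± 0.22 CPM in mutant iTregs, against 66.2 ± 6.7 CPM in mutant nTregs (log2 fold change −5.75 ± 0.17, adjusted p = 1.84e-10). It was at 1.85 ± 0.45 CPM in WT iTregs, against 58.9 ± 6.8 CPM in WT nTregs (−4.99 ± 0.16, adjusted p = 3.91e-10, edgeR). Dtx1 did not pass between genotypes in either kind of cell with all 12 libraries, and was called lower in mutant iTregs without WT iTreg library 3 (adjusted p = 0.0295), WT nTreg library 3 (0.049) or mutant nTreg library 1 (0.0308).

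Genes whose log2 levels over the 12 libraries were most like those of a member were taken from 12945 genes open to this comparison, as a description. The libraries fall into 4 groups, so the 12 points are not independent of each other, and the correlation of deviations from the group means is given beside it. For Helios the nearest were Dll1, a Notch ligand, Meis1, a homeobox factor, and Fam160a1, each with a Pearson correlation of 0.995, and 0.82 to 0.87 within groups. For Aiolos they were Zzef1 (0.992), Camk1d (0.99) and Pi4ka (0.988), with 0.867 to 0.904 within groups. Eos was most like Sema6c (0.955), Lzts2 (0.953) and Ski (0.93), the last encoding a corepressor of transforming growth factor beta signalling, with 0.829 to 0.915 within groups. Pegasus was most like Ddx47 (0.944, and 0.799 within groups), Fam210a (0.91, and 0.259 within groups) and Ppm1a (0.907, and 0.228 within groups), so the likeness to Fam210a and Ppm1a lay mostly between group means. Ikaros was most like Ccdc59 (0.892), Iws1 (0.88) and Fbxw7 (0.876), with 0.819 to 0.975 within groups.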

How the data were processed

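The deposited files give gene counts as whole numbers, with a file for each library, and these entered the tests as they stand. Reads, per the file headers, were counted by the authors with featureCounts 1.5.2 on the Ensembl release 87 annotation of GRCm38, reverse-stranded, by largest overlap, with reads that align to several places counted at each. The submitters' processing notes list bcl2fastq 2.18.0.12, STAR 2.5.2b, Subread 1.5.2 and the mm10 build. Per the labels' protocols, RNA was prepared with a NucleoSpin kit and libraries with the TruSeq Stranded mRNA kit. The headers name 1 sequencing run for all 12 libraries.

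Counts were tested with edgeR 4.0.16 (R 4.3.3): filterByExpr, TMM scaling, 1 mean per group, glmQLFit and glmQLFTest over 17977 genes, with Benjamini-Hochberg adjustment within a comparison and a threshold of 0.05. CPM and RPKM use TMM library sizes and the exon lengths of the files. The 5 comparisons share groups with each other. The fit was also run on counts simulated with the spread that it had itself estimated and with few changed genes. That run cannot show how the fit does where as many genes change, or libraries stand apart, as here. Sequences are in-frame matches to the zinc finger pattern in GENCODE M21 transcripts, the same GRCm38 assembly. The last finger of 2 members is not reported here. The promoter table given held too few members to be used.

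The members, gene lists, rules and alternatives were chosen with earlier results of these data known, and lists came from general knowledge. Named were the members, Gclc, Foxp3, the 4 factors beside it, up to 4 genes per list and comparison with the smallest adjusted p that passed, and the 3 genes most like each member. Chd4, Blk, Sdc1 and genes whose calls changed with a library left out were named after their values were seen. Replicate numbers were not used as pairs. The alternatives changed the scaling (RLE, or library size alone), the filter (none, or at least 1 CPM in 3 libraries), the tool (DESeq2 1.42.0), the genes (protein-coding alone), the libraries (only those compared, or 1 left out) and the design (a replicate block).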

Additional observations from a re-analysis of the deposited data

Results flagged for a closer look

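The Pegasus gene Ikzf5 had a mutant effect in iTregs that differed from that in nTregs by a test of the difference itself. The log2 fold change of mutant against WT was 0.16 ± 0.08 in iTregs and −0.37 ± 0.08 in nTregs, and iTregs minus nTregs gave 0.53 ± 0.11 (adjusted p = 0.00949, edgeR). Leaving out any 1 of the 12 libraries gave 0.477 to 0.585 with adjusted p between 0.00887 and 0.0299. Levels of Ikzf5 spanned 35.5 to 54.6 CPM over all libraries, and the shared stretches with Gm10356 limit how precisely it can be counted.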

How the results depend on the processing

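The calls for Aiolos and Pegasus in nTregs, Helios and Aiolos between kinds of cell in both genotypes, Eos between kinds in WT, Pegasus between kinds in the mutant and the Pegasus difference kept their direction and passed under every alternative run. In iTregs, mutant against WT, 2 members passed in place of 1 under library size alone, no filter, the 1 CPM filter, DESeq2 and protein-coding genes alone, because Aiolos was added (adjusted p 0.0211 to 0.0357). With each library left out the number of members called was 0 to 2 in iTregs, 2 to 2 in nTregs, 1 to 2 for the difference, 3 to 4 between kinds in the mutant and 3 to 3 in WT. Library size alone moved the median of all tested genes to −0.14 for the difference and −0.21 between kinds in the mutant.

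Values that did not pass changed sign as follows. Eos in nTregs was 0.001 under library size alone. With each library left out, Ikaros in iTregs was −0.044 to 0.052, Helios in iTregs −0.297 to 0.649, Eos in nTregs −0.172 to 0.13 and Eos between kinds in the mutant −0.155 to 0.177. The Ikaros difference was −0.058 under library size alone and −0.002 with protein-coding genes. Between kinds in the mutant, library size alone gave −0.019 for Ikaros and −0.119 for Eos. Helios over Ikaros, mutant against WT, was 0.089 with Ikaros, Aiolos and Pegasus as denominator and −0.302 to 0.124 with each library left out, and Helios over Eos −0.025 to 0.347. Eos over Ikaros between kinds was 0.44 with that denominator (exact p = 0.04, unadjusted). The cause of these changes was not tested.

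Deviations of same-numbered libraries from their group means correlated at −0.17 to 0.10. These compare different kinds of cell or genotypes, so they cannot show whether the replicate numbers pair the samples. With the replicate block the number of members called was unchanged in each of the 5 comparisons, and Ikaros (0.061) and Helios (−0.038) in iTregs changed sign. The lowest count of a member in any library was 702 (Helios, mutant iTreg library 2), and 3 libraries per group limit the precision.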
